A study of Homo sapiens with 6 samples.

Results

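The clustered core and linker histone genes were compared between side population (SP) and non-SP cells of IGROV1, an established human ovarian carcinoma cell line. Members were the probe sets whose single gene symbol starts with H2AC, H2BC, H3C or H4C followed by a number, or is one of the linker histone genes H1-1, H1-2, H1-3, H1-4 and H1-5. This gave 46 probe sets of 41 genes, out of 41091 probe sets that carry 1 symbol and 19775 genes. By class there were 5 H1, 8 H2A, 13 H2B, 7 H3 and 8 H4 genes. SP cells keep little of the DNA-binding dye Hoechst 33342, and non-SP cells retain it. Both groups came from the same culture conditions (RPMI 1640 with fetal bovine serum), went through the same dye stain and sort, and carried no other treatment or genetic change. Each group had 3 samples, each on 1 array, and the values are log2 expression after RMA normalization. The labels speak of biological replicates but name no separate cultures; each p-value here rests on the spread among these samples, part of which may be technical. RNA was taken from sorted cells in bulk, so fewer cells that express a gene and less of its RNA per cell cannot be told apart.

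Histones package DNA into nucleosomes. An octamer of the core histones H2A, H2B, H3 and H4 forms the spool, and linker histone H1 binds where the DNA enters and leaves. Most of these genes are replication-dependent: they lie in clusters, lack introns and are transcribed in S phase, and their mRNA ends in a stem-loop in place of a poly(A) tail. A few also give polyadenylated RNA, which cells make outside S phase and after they stop dividing. H1-2, H2AC6, H2BC4, H2BC5, H2BC12 and H2BC21 were taken as this group from general knowledge, but with their direction in these data already known. The list is therefore not independent of the values below. Other clustered histone genes may also give such RNA, so the genes outside the list are not known to lack it.

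Promoter windows from 250 bases before to 50 bases after the transcription start were given by RefSeq (GRCh38.p14) for 39 of the 41 genes, 37 on chromosome 6 and 2 on chromosome 1. For the 3 genes with more than 1 window, the first listed was used. The windows below belong to genes with large differences in either direction, and show how the classes differ in sequence. Each is written 5′ to 3′ on the gene's strand, and capitals mark every match, on either strand, to the octamer ATTTGCAT, the CCAAT box, the TATA box TATAAA, the H1 box AAACACA and the letters GGTCCG of the H4 promoter site.
H2AC6 (chr6:26123922-26124221, plus strand): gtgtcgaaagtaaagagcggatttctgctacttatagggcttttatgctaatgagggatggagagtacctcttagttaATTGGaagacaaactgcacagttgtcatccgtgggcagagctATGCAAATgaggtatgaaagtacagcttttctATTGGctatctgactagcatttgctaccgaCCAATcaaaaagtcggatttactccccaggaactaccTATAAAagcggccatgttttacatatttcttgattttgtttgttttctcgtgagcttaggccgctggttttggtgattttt
H2BC21 (chr1:149886633-149886932, minus strand): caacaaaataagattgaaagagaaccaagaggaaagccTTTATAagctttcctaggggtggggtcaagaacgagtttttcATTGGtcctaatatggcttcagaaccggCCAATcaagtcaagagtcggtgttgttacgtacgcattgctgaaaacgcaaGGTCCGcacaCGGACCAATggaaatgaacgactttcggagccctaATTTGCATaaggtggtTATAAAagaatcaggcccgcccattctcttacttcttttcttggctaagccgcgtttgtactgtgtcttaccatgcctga
H2BC9 (chr6:26251364-26251663, plus strand): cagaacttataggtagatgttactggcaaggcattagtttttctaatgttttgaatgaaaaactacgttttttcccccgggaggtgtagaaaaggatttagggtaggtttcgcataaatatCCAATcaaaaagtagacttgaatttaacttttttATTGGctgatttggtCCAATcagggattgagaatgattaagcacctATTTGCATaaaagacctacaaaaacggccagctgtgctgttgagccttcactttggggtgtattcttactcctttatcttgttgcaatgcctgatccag
H4C5 (chr6:26204360-26204659, plus strand): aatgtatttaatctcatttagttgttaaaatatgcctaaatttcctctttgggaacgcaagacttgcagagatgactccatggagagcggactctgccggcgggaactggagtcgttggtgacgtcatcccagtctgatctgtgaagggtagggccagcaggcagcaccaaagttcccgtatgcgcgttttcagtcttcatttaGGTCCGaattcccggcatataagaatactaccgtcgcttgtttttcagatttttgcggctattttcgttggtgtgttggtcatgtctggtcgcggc
H1-1 (chr6:26017738-26018037, minus strand): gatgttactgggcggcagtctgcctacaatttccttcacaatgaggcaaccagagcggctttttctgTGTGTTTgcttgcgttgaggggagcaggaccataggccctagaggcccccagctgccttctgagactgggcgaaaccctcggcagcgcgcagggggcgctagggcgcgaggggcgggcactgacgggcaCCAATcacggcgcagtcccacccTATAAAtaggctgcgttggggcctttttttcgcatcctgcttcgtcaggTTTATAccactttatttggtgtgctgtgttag

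The octamer, which binds the transcription factor OCT1, was found in 6 of 8 H2A and 10 of 13 H2B windows and in 0 windows of H1, H3 or H4, against 1.77% of all 35116 windows. The H1 box was in 5 of 5 H1 windows and in 0 windows of the core classes, against 5.64% of all. GGTCCG, within the element bound by HINFP in H4 promoters, was in 6 of 7 H4 windows, 1 H2B window (H2BC21) and 1 H3 window (H3C7), against 11.3% of all. CCAAT was in 34 of the 39 windows (34.6% of all) and TATAAA in 27 (11.5% of all). In the H2BC21 window the second GGTCCG match and a CCAAT match overlap. These matches describe letters only and were not tested against expression: the 16 H2A and H2B genes with the octamer had differences from -1.16 to 1.11, and the 5 without it from -0.52 to 1.22.

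Before the histone values, one feature of all arrays needs to be given. On the first principal component of all 19775 genes, which held 45.8% of their variance, SP replicate 1 and non-SP replicates 1 and 3 lay on one side (array set 1) and SP replicates 2 and 3 and non-SP replicate 2 on the other (array set 2). The sets were read from the values and are not groups of the study. The 3′ minus 5′ signal of the ACTB control probe sets, a measure of RNA integrity and of how far cDNA synthesis reached, was 2.02 to 2.29 log2 units in set 1 and 2.46 to 2.55 in set 2. Differences within each set are therefore given for the classes and for the lists of histone regulators and of replication and mitosis genes. They are also given for several genes with large differences and for some where a set differs from the pooled value in sign. The part of the array set in the histone differences was not tested beyond these and the fits that include it. Negative control probe sets had a mean level between 2.82 and 2.96 on the 6 arrays. Of the 41 histone genes 38 were above this level on all 6 arrays. H2BC1 was below it on all 6, and H2BC15 and H3C7 on 4 each.

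Most histone genes had higher levels in SP cells, and 4 of the 6 known for polyadenylated RNA had lower levels. Of the 41 genes, 32 had a difference (SP minus non-SP, log2) above 0 and 9 below 0, with a median of 0.37, against a median of -0.02 over all 19775 genes. In 16 histone genes the 3 SP values were each above every non-SP value, a share of 39% where 4.78% of all genes did so. In 5 histone genes the SP values were each below every non-SP value, a share of 12.2% where 7.1% of all genes did so. None of the 41 passed an adjusted p of 0.05 (limma, Benjamini-Hochberg over all genes; smallest adjusted p = 0.101 for H2BC21), a threshold that 0.00506% of all genes passed. At an unadjusted p under 0.05 there were 15 higher and 3 lower histone genes, against 3.07% and 3.71% of all genes. Counts over members are not counts of independent genes, since many histone genes share long stretches of sequence and a probe set can pick up more than 1 of them.

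**Figure D1:**
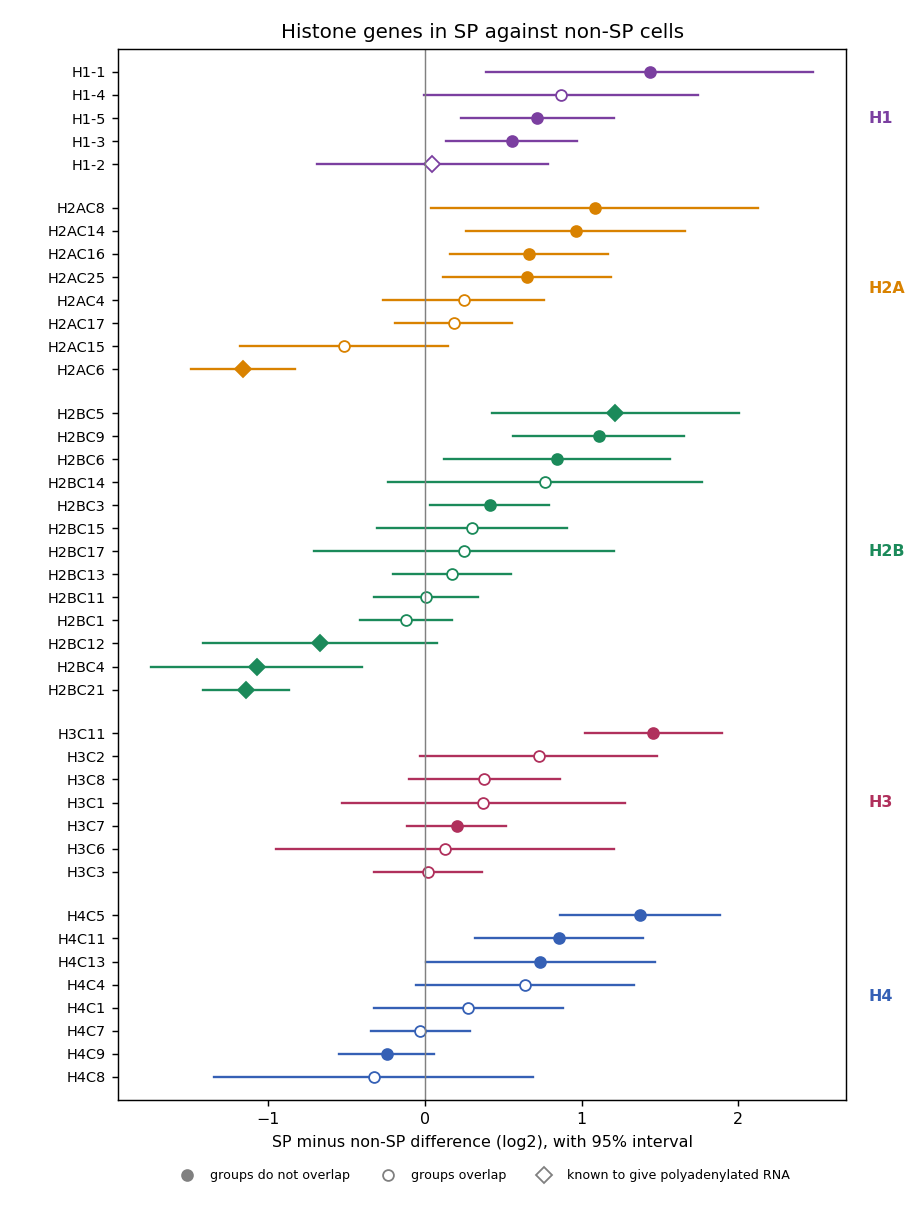
SP minus non-SP difference in log2 expression of each of the 41 histone genes, ordered within the 5 classes, with the 95% interval of the limma fit (n = 3 per group). Filled symbols mark genes whose groups do not overlap (16 higher, 5 lower) and diamonds the 6 genes known to give polyadenylated RNA, 4 of which lie at the lower end of H2A and H2B.

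The linker histone genes were all above 0 in difference, with a median of 0.72 over 5 genes. Of the 5, 3 were higher without overlap (60%, where 4.78% of all genes were). H1-1, a linker histone restricted to few tissues, had log2 levels of 10.58, 9.003 and 9.12 in SP replicates 1, 2 and 3 and of 8.29, 7.73 and 8.38 in non-SP replicates 1, 2 and 3. The lowest SP value was above the highest non-SP value, and SP replicate 1 stood well above the other two. The difference was 1.43 (SE 0.44, 95% interval 0.39 to 2.48, limma adjusted p = 0.611), a 2.70-fold higher level, with 2.24 within array set 1 and 1.33 within set 2. H1-5, a linker histone of dividing cells, measured 5.92, 6.18 and 6.50 in SP and 5.67, 5.18 and 5.60 in non-SP cells. Its groups did not overlap, with a difference of 0.72 (SE 0.20, limma adjusted p = 0.597) that was 0.28 within array set 1 and 1.16 within set 2. H1-3 measured 6.32, 5.76 and 5.81 in SP and 5.34, 5.41 and 5.49 in non-SP cells, 0.55 apart (SE 0.18). The non-SP values lay close together under the lowest SP value. H1-4 differed by 0.87 (SE 0.37) with 1 SP value just under the highest non-SP value. H1-2, the linker histone known for polyadenylated RNA, measured 8.18, 7.01 and 7.52 in SP and 7.78, 7.22 and 7.58 in non-SP cells. The groups overlapped, and the difference of 0.05 had a 95% interval of -0.69 to 0.78.

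Among the 8 H2A genes, 4 were higher and 1 lower without overlap (50% and 12.5%, where 4.78% and 7.1% of all genes were). The median difference was 0.45. H2AC6, known for polyadenylated RNA, was the lower one: it measured 6.99, 6.94 and 7.05 in SP and 8.04, 8.03 and 8.39 in non-SP cells. The SP values lay close together and about a log2 unit under the lowest non-SP value. The difference was -1.16 (SE 0.14, 95% interval -1.49 to -0.83, limma adjusted p = 0.121), a 2.24-fold lower level in SP cells. It was -1.22 within array set 1 and -1.04 within set 2. H2AC14 measured 10.42, 9.61 and 9.71 in SP and 9.41, 8.57 and 8.87 in non-SP cells. All SP values were above all non-SP values, and replicate 1 was the highest of each group. Its difference was 0.96 (SE 0.29, limma adjusted p = 0.611). H2AC16 measured 4.72, 4.36 and 4.12 in SP and 4.05, 3.66 and 3.50 in non-SP cells, a gap narrow at its nearest values, with a difference of 0.67 (SE 0.21). H2AC25 measured 8.78, 8.10 and 8.28 in SP and 8.02, 7.47 and 7.72 in non-SP cells, with a difference of 0.65 (SE 0.22) and also no overlap. H2AC8 differed by 1.08 (SE 0.44) without overlap, while H2AC4 and H2AC17 differed by 0.25 and 0.18 with overlap. H2AC15 differed by -0.52 (SE 0.28), with 0.15 within array set 1 and -0.90 within set 2.

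The 13 H2B genes were divided, with 4 higher and 3 lower without overlap (30.8% and 23.1%, where 4.78% and 7.1% of all genes were). The median difference was 0.25. H2BC21, known for polyadenylated RNA in cells that have left the cycle, measured 5.25, 5.04 and 5.09 in SP and 6.20, 6.28 and 6.33 in non-SP cells. Both groups were tight and stood apart by almost a log2 unit. The difference was -1.14 (SE 0.12, 95% interval -1.42 to -0.87, limma adjusted p = 0.101), a 2.21-fold lower level in SP cells, with -1.02 within array set 1 and -1.21 within set 2. It ranked 5 among all 19775 genes by unadjusted p. With array weights, which limma estimates from each array's scatter around its group means, H2BC21 passed the threshold. The difference was then -1.19 (SE 0.11, limma adjusted p = 0.038, range 0.038 to 0.455 over 15 alternatives). In that setting 0.0202% of all genes passed on the higher and 0.0405% on the lower side. The lowest weights fell on non-SP replicate 2 (0.54) and SP replicate 1 (0.56), each alone of its group in its array set.

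H2BC4, also known for polyadenylated RNA, measured 4.14, 3.68 and 3.76 in SP and 5.28, 4.33 and 5.20 in non-SP cells. The groups did not overlap, although non-SP replicate 2 was near the SP values. The difference was -1.08 (SE 0.28, limma adjusted p = 0.528), with -1.10 within array set 1 and -0.61 within set 2. H2BC12 measured 6.49, 7.52 and 7.50 in SP and 7.64, 8.18 and 7.70 in non-SP cells. Its groups were parted by a narrow margin and SP replicate 1 made much of the difference of -0.67 (SE 0.31, limma adjusted p = 0.764), which was -0.33 without that replicate. H2BC9, a replication-dependent H2B gene, measured 8.16, 7.32 and 7.60 in SP and 6.50, 6.49 and 6.76 in non-SP cells. All SP values were above all non-SP values, with a difference of 1.11 (SE 0.23, 95% interval 0.56 to 1.65, limma adjusted p = 0.401) or 2.16-fold. It was 1.53 within array set 1 and 0.97 within set 2. H2BC6 measured 9.95, 8.93 and 9.21 in SP and 8.69, 8.12 and 8.75 in non-SP cells, and differed by 0.84 (SE 0.30). H2BC3 measured 4.69, 4.63 and 4.72 in SP and 4.15, 4.08 and 4.57 in non-SP cells, and differed by 0.41 (SE 0.16). Neither gene's groups overlapped, but non-SP replicate 3 was close to the SP values of H2BC3. H2BC14 measured 7.96, 7.40 and 6.29 in SP and 6.14, 6.75 and 6.46 in non-SP cells, with overlap and a difference of 0.77 (SE 0.42), which was 1.66 within array set 1 and 0.09 within set 2. The other H2B genes with overlapping groups (H2BC1, H2BC11, H2BC13, H2BC15 and H2BC17) had differences from -0.12 to 0.30.

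All 7 H3 genes had a pooled difference above 0, but 5 of the 7 did so within each array set. Of the 7 only H3C11 and H3C7 had groups that did not overlap (28.6% higher, where 4.78% of all genes were). H3C11 measured 7.32, 7.55 and 7.87 in SP and 6.17, 5.91 and 6.29 in non-SP cells. The groups were more than a log2 unit apart at their nearest values. The difference of 1.46 (SE 0.18, 95% interval 1.02 to 1.90, limma adjusted p = 0.123), or 2.75-fold, was the highest among the 41 histone genes. It was 1.09 within array set 1 and 1.80 within set 2. H3C2 measured 6.47, 5.88 and 6.36 in SP and 5.92, 4.84 and 5.77 in non-SP cells. Non-SP replicate 2 stood low, the groups overlapped, and they differed by 0.73 (SE 0.32). H3C8 measured 6.80, 6.22 and 6.28 in SP and 6.30, 5.92 and 5.94 in non-SP cells, and differed by 0.38 (SE 0.20) with overlap. H3C1, H3C3 and H3C6 differed by 0.37 (SE 0.38), 0.02 and 0.13, each with overlap. H3C6 was below 0 within both array sets (-0.47 and -0.03), H3C3 within set 1 (-0.08) and H3C1 within set 2 (-0.08). H3C7, at 2.82, 2.82 and 3.12 in SP and 2.66, 2.69 and 2.802 in non-SP cells, differed by 0.20 (SE 0.13) at a level near the negative controls, so its lack of overlap says little.

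Of the 8 H4 genes 3 were higher and 1 lower without overlap (37.5% and 12.5%, where 4.78% and 7.1% of all genes were). The median difference was 0.46. H4C5 measured 11.12, 10.99 and 11.23 in SP and 9.81, 10.10 and 9.31 in non-SP cells. The SP values lay together and above the more scattered non-SP values. The difference was 1.37 (SE 0.21, 95% interval 0.86 to 1.88, limma adjusted p = 0.184), or 2.59-fold, with 1.56 within array set 1 and 1.01 within set 2. H4C11 measured 8.34, 8.07 and 8.52 in SP and 7.16, 7.88 and 7.32 in non-SP cells, and differed by 0.86 (SE 0.22, limma adjusted p = 0.528). The lowest SP value was just above non-SP replicate 2. H4C13 measured 5.69, 5.56 and 6.07 in SP and 4.37, 5.39 and 5.36 in non-SP cells, without overlap and with a difference of 0.74 (SE 0.31). H4C4 measured 5.37, 4.51 and 4.47 in SP and 4.48, 4.13 and 3.83 in non-SP cells, with a slight overlap and a difference of 0.64 (SE 0.29). H4C1 and H4C7 differed by 0.28 and -0.03, also with overlap. On the lower side, H4C9 differed by -0.25 (SE 0.13) without overlap and H4C8 by -0.33 (SE 0.43) with overlap.

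**Figure D2:**
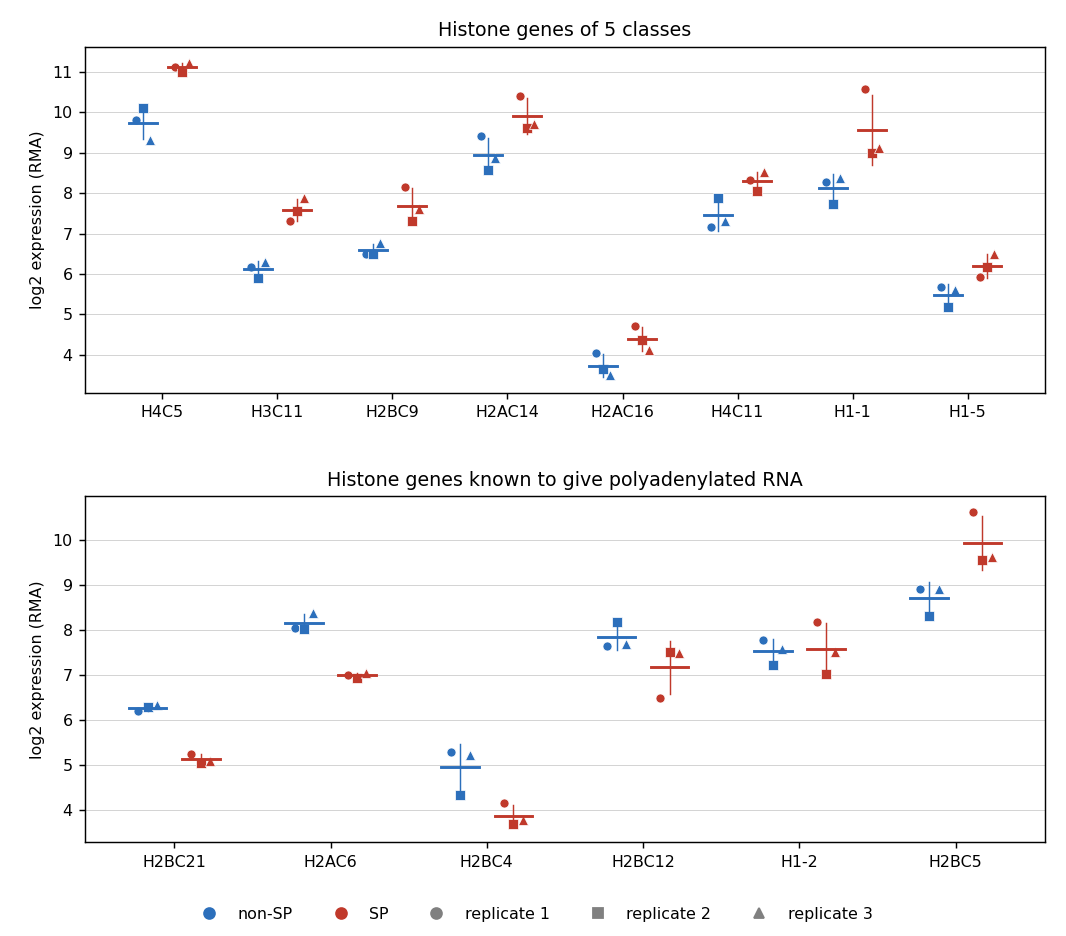
Log2 expression of 14 histone genes in each of the 6 samples; bars give the mean, vertical lines the SD (n = 3), and symbol shape the replicate number. The upper panel shows 8 of the 15 genes outside the polyadenylated list that have SP values above all non-SP values. It leaves out the 19 genes outside that list with overlap. In the lower panel, of genes known to give polyadenylated RNA, H2BC21, H2AC6, H2BC4 and H2BC12 have SP values below all non-SP values. There H1-2 overlaps and H2BC5 is higher.

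Set side by side, the histone genes known for polyadenylated RNA and the rest had medians of opposite sign. Of the first 6 genes, 4 were lower and 1 was higher without overlap (66.7% and 16.7%, where 7.1% and 4.78% of all genes were). Their median difference was -0.87. Of the other 35 genes, 15 were higher and 1 was lower without overlap (42.9% and 2.86%, where 4.78% and 7.1% of all genes were). Their median was 0.41. The median level of the 6 genes was 6.74, 6.98 and 7.27 in SP replicates 1, 2 and 3 and 7.71, 7.63 and 7.64 in non-SP replicates 1, 2 and 3. The SP arrays were all below the non-SP arrays. For the other 35 genes the medians were 5.84, 5.76 and 6.07 in SP and 5.67, 5.41 and 5.60 in non-SP cells, with the SP arrays above. The genes of the first list were picked with their direction in these data known, so the contrast is a description and was not tested.

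H2BC5 was the exception among the 6, and its value depended on the probe set. The probe set used for the gene, which had the higher mean, measured 10.63, 9.55 and 9.62 in SP and 8.92, 8.31 and 8.92 in non-SP cells. These groups did not overlap, and the difference was 1.22 (SE 0.33, limma adjusted p = 0.554), with 1.71 within array set 1 and 1.28 within set 2. The other H2BC5 probe set measured 7.70, 8.35 and 8.44 in SP and 8.42, 8.14 and 8.69 in non-SP cells. There the groups overlapped, SP replicate 1 was the lowest of all instead of the highest, and the difference was -0.25 (SE 0.24), with -0.85 within array set 1 and 0.25 within set 2.

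In all, 5 genes had 2 probe sets, and other pairs among them differed as well. For H4C8, the probe set used differed by -0.33 (SE 0.43) with overlapping groups. The second H4C8 probe set measured 6.18, 5.13 and 5.30 in SP and 4.59, 4.30 and 4.25 in non-SP cells, with no overlap and a difference of 1.16 (SE 0.29). For H2AC25 the 2 probe sets differed by 0.65 (SE 0.23) and 0.01 (SE 0.14). For H2AC15 both were below 0, at -0.52 (SE 0.28) and -1.19 (SE 0.32), and the second had no overlap. For H3C6 they differed by 0.13 (SE 0.46) and 0.21 (SE 0.13). Probe sets of 1 histone gene thus disagreed by up to more than a log2 unit, and the annotation does not say which form of the RNA each detects. The values of these paired probe sets come from the limma fit over all 54613 probe sets, where 0 histone probe sets had an adjusted p under 0.05 (smallest 0.122) and 0.00183% of all probe sets passed it. At an unadjusted p under 0.05, 15 histone probe sets were higher and 4 lower, against 3.79% and 3.52% of all probe sets.

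**Figure D3:**
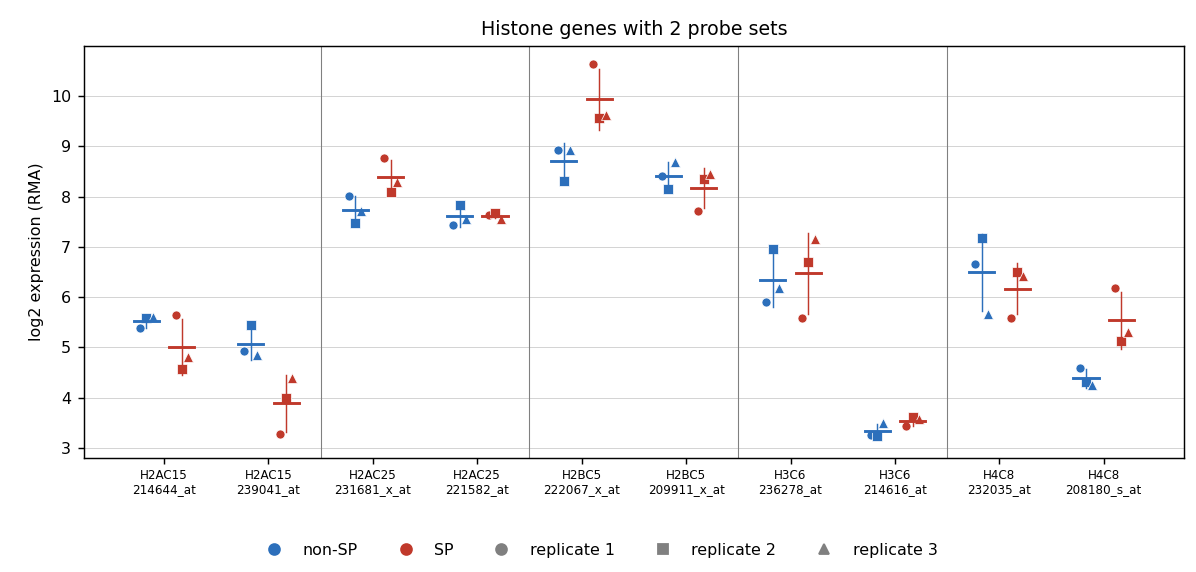
Log2 expression in each of the 6 samples for the 5 histone genes with 2 probe sets; for each gene the left probe set is the one used. Bars give the mean and vertical lines the SD (n = 3). The SP values lie above the non-SP values for 1 probe set of H2AC25, H2BC5 and H4C8 but not for the other.

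A further 20 probe sets carry several gene symbols that include clustered histone genes and were left out by the rule. They also held differences in both directions. Of these, 11 were higher without overlap (55% where 5.59% of all probe sets did so) and 2 were lower (10% where 6.87% did so). A probe set shared by 14 H4 genes measured 8.40, 8.10 and 7.67 in SP and 7.22, 6.68 and 6.68 in non-SP cells. It differed by 1.19 (SE 0.24) with no overlap, the highest among the probe sets shared by these 14 genes. The others differed by 1.00, 0.90 and 0.37 without overlap and by -1.06 (SE 0.86) with overlap. The last was below the negative controls on 3 arrays. Of 2 probe sets shared by H2BC8 and H2BC11, one differed by 1.21 (SE 0.48) and the other by -1.62 (SE 0.53), both without overlap. Likewise, of 2 probe sets shared by the same 6 H2A genes, one differed by 0.90 (SE 0.33) and the other by -0.86 (SE 0.22), again without overlap. Affymetrix gives the suffixes _s_at and _x_at to probe sets that match several transcripts or share probes with other sequences. All 9 several-gene probe sets with such a suffix had a difference above 0, and 4 of the 11 without it did. Among the 41 member genes, 10 rested on a probe set with such a suffix, with a median of 0.78. Without overlap 6 were higher (H2AC14, H2AC25, H2BC5, H2BC6, H2BC9 and H4C11) and 2 lower (H2AC6 and H2BC21). The other 31 had a median of 0.25, with 10 higher and 3 lower without overlap. Of all genes, whatever their suffix, 4.78% were higher and 7.1% lower without overlap. With only probe sets that lack the suffixes, the median was 0.25 for H2A, 0.20 for H3 and 0.28 for H4.

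In the H2A and H2B classes, many genes sit head to head and share the region between their starts. Among the genes with windows, 4 such pairs had windows on opposite strands that overlapped by 255 to 293 bases. H2AC6 and H2BC4, both lower without overlap, are one pair: their differences were -1.16 and -1.08, and the H2BC4 window shares 255 bases with the H2AC6 sequence printed above. H2AC14 and H2BC14 differed by 0.96 and 0.77, and H2AC17 and H2BC17 by 0.18 and 0.25. H2AC15 and H2BC15 differed by -0.52 and 0.30, each with overlapping groups. In 3 of the 4 pairs the partners had the same sign, which was not tested.

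Within array set 1 the difference was above 0 for 31 of the 41 genes with a median of 0.62, and within array set 2 for 29 with a median of 0.32. Over all 19775 genes these medians were -0.01 and -0.04. For the 6 genes known for polyadenylated RNA the medians were -1.06 and -0.64, and for the other 35 genes 0.75 and 0.36. By class the medians within sets 1 and 2 were 0.91 and 0.76 for H1, 0.68 and 0.47 for H2A, 0.47 and 0.14 for H2B, 0.62 and 0.28 for H3, and 0.49 and 0.39 for H4. Within 1 or both sets, H2AC15, H2BC1, H2BC11, H2BC13, H3C1, H3C3, H3C6, H4C1 and H4C7, all with overlapping groups, had a difference of opposite sign to the pooled one. Each such difference rests on 3 arrays, and the sets share no sample. Where the groups do not overlap, the sign within each set must match the pooled sign, so that match adds no support. SP replicate 1 was the highest array for 23 of the 41 genes and non-SP replicate 2 the lowest for 17, where 3419 and 3276 of all 19775 genes had these extremes. Without SP replicate 1 the median over the 41 genes was 0.34, with 16 genes higher and 6 lower without overlap. Groups part more readily with fewer arrays, and the share of all genes was not counted in that setting. The H2B median was the least stable: it was 0.03 with SP replicate 1 left out, 0.10 with non-SP replicate 3 left out, and 0.46 with the array set as a block.

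**Figure D4:**
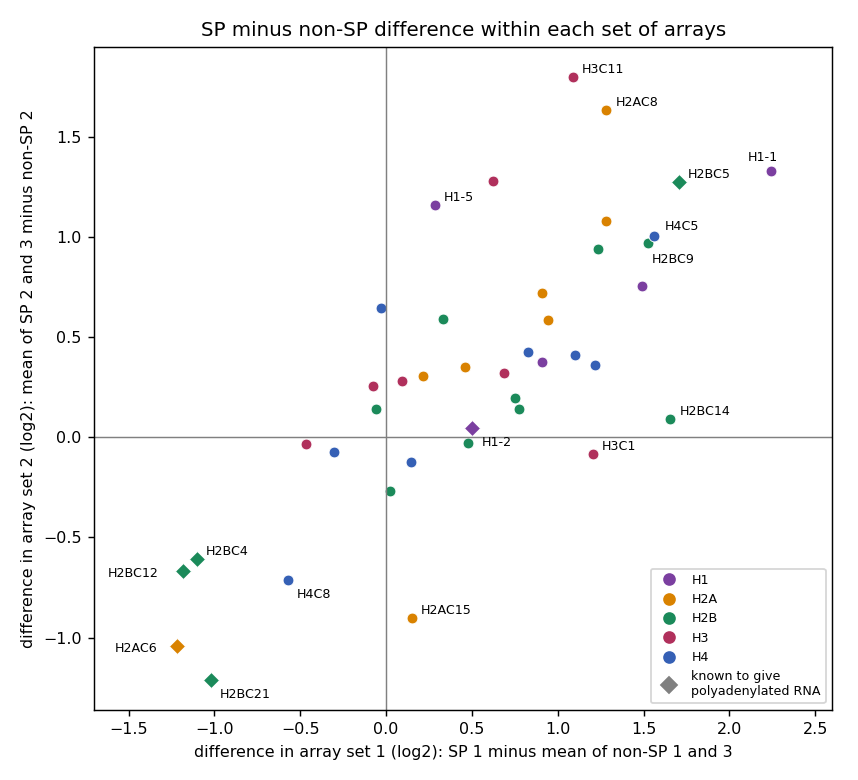
SP minus non-SP difference (log2) of the 41 histone genes within array set 1 (horizontal axis) and array set 2 (vertical axis); colour gives the class and diamonds the genes known for polyadenylated RNA. Most genes lie at the upper right, and H2BC21, H2AC6, H2BC4 and H2BC12 lie together at the lower left. Genes whose groups do not overlap must have the same sign on both axes.

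Genes that act on histone genes and their mRNA were compared next, from fixed lists. Beside the counts of these lists stand the shares of all genes, 4.78% higher and 7.1% lower without overlap. Of 7 measured genes that activate histone promoters, 2 were higher and 0 lower without overlap, with a median of 0.14 that was 0.14 and 0.30 within array sets 1 and 2. NPAT, the cyclin E/CDK2 substrate that switches on histone genes, measured 7.36, 7.31 and 7.86 in SP and 7.26, 6.87 and 6.94 in non-SP cells. The SP values lay just above the non-SP values, with a difference of 0.48 (SE 0.19, limma adjusted p = 0.718). CASP8AP2, also called FLASH, which acts in histone locus bodies, differed by 0.45 (SE 0.22), E2F1 by 0.35 (SE 0.18) and CDK2 by -0.02 (SE 0.15). Of 8 genes of histone mRNA 3′ end processing, 1 was higher and 2 were lower without overlap, with a median of -0.01 that was 0.0032 and -0.05 within array sets 1 and 2. ZNF473, a zinc finger protein that ties the U7 snRNP to the stem-loop binding protein, measured 7.16, 7.13 and 7.26 in SP and 6.44, 6.19 and 6.50 in non-SP cells. The groups were well apart, with a difference of 0.81 (SE 0.13, limma adjusted p = 0.206). CPSF3, the endonuclease that cuts histone and other pre-mRNA, differed by -0.40 (SE 0.13), and CSTF2 by -0.27 (SE 0.14). SLBP, the stem-loop binding protein itself, differed by -0.07 with a 95% interval of -0.47 to 0.32.

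Of 5 genes of histone mRNA translation and decay, 0 were higher and 1 was lower without overlap (UPF1, -0.30, SE 0.16), with a median of -0.21 (-0.24 and -0.22 within array sets 1 and 2). Of 7 histone chaperone genes, 0 were apart in either direction, with a median of 0.12 (0.15 and 0.36 within array sets 1 and 2); CHAF1A, of the assembly factor CAF-1, differed by 0.44 (SE 0.31). Genes of DNA replication, which are active in the same phase as most histone genes, had a median of 0.03 over 15 genes, with 0 higher and 1 lower without overlap (MCM6, -0.28, SE 0.12). Within array sets 1 and 2 this median was 0.12 and 0.26, with 8 and 12 of the 15 genes above 0. The range of their mean level was 9.37 to 9.68 in SP and 9.07 to 9.67 in non-SP cells, and these overlapped. Mitosis genes had a pooled median of -0.16 over 8 genes, with 0 apart, but medians of 0.06 and 0.39 within array sets 1 and 2, with 5 and 8 of the 8 genes above 0. Their mean level spread from 8.98 to 9.94 in SP and from 8.55 to 9.95 in non-SP cells. None of the genes in these 5 lists or among mitosis genes had a limma adjusted p under 0.05. At an unadjusted p under 0.05 there were NPAT and ZNF473 on the higher and CPSF3 on the lower side. Of all genes, 3.07% and 3.71% were so, and whether these lists exceed such shares was not tested.

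The labelled cell type was checked by markers. Epithelial and ovarian carcinoma markers were present, with EPCAM at 11.997 to 12.293 and PAX8 at 10.14 to 10.67 on the 6 arrays, and MSLN was low at 4.77 to 5.58. Of these 7 markers, 1 was higher and 3 were lower without overlap (14.3% and 42.9%, where 4.78% and 7.1% of all genes were). The keratin KRT7 differed by 0.79 (SE 0.18) and KRT8 by -0.71 (SE 0.22). Of the 4 measured leukocyte markers, PTPRC (2.24 to 3.53) and CD3E (2.24 to 2.64) lay near the negative controls, while LYZ (3.93 to 4.28) and CD14 (5.22 to 5.56) lay above them on all 6 arrays. Their mean level was 3.59 to 3.87 in SP and 3.51 to 3.74 in non-SP cells, and 0 of the 4 were apart between groups. The mean level of 5 fibroblast and endothelial markers was 5.36 to 5.41 in SP and 5.50 to 5.67 in non-SP cells, with 5 of 5 differences below 0 and VWF apart (-0.29, SE 0.13). Their part in the histone differences was not tested.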

How the data were processed

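The authors deposited 1 log2 value per probe set and sample. The submitters' processing notes name R 2.8.1 with affy and RMA; other settings were not found. Quantile normalization, which RMA includes by default, gives arrays a common distribution, so a shift in total histone mRNA that went with all mRNA would not show. Per the labels' protocols, cells were sorted, and RNA was extracted with the Arcturus Pico Pure kit and amplified with WT-Ovation Pico. Whether that amplification takes up histone mRNA without a poly(A) tail as fully as polyadenylated mRNA was not tested. Array number, not read depth, limits precision.

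After 62 control probe sets were left out, each of 19775 genes was represented by whichever of its probe sets had the highest mean on the 6 arrays, with symbols from the platform annotation; all 46 member probe sets matched RefSeq (GRCh38.p14) by Entrez ID. SP minus non-SP differences were fitted over all genes with limma 3.58.1 in R 4.3.3 (lmFit, eBayes, two-sided), with Benjamini-Hochberg adjusted p-values and a threshold of 0.05, and intervals are at 95%. Every probe set was also fitted on its own. The fit was tested on simulated data. Python 3.11.15, pandas 2.3.3 and matplotlib 3.10.9 were used for tables and figures.

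The members and gene lists were chosen with earlier results of these data known. Full values are given for H4C5, H3C11, H2BC9, H2BC21, H2AC6, the 6 genes known for polyadenylated RNA and up to 3 further genes per class by unadjusted p; genes whose groups do not overlap are named, and up to 3 genes of each other list. Other members with their differences, the second probe sets, the several-gene probe sets, SLBP, CDK2, and PAX8, EPCAM and CD3E among the markers were chosen after their values were seen. Probe sets without an _s or _x suffix and the other H2BC5 probe set were alternatives added after seeing the data. No protein or probe sequences were used here.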

Additional observations from a re-analysis of the deposited data

How the results depend on the processing

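Of the 24 genes given by the rule, 22 kept their sign in all alternatives run. Much of this was fixed in advance. Where groups do not overlap, leaving out any single sample or blocking on the array set cannot turn the sign. The replicate block and the intensity trend leave each difference unchanged, and genes with 1 probe set have no second to compare. H4C8, whose second probe set had the opposite sign, is not among the 24. H1-2 turned to -0.19 with array weights, -0.26 and -0.11 with SP replicate 1 and non-SP replicate 2 left out, and H2BC5 to -0.25 with its other probe set. The count past an adjusted p of 0.05 was 0 in all alternatives except array weights, where it was 1 (H2BC21).

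With only genes above the median level, 10 histone genes were higher and 2 lower without overlap. The share of all genes that did so was not counted in this setting, nor in the suffix setting below. The medians above that level were 0.85 over all histone genes, 0.84 over H2B and 0.86 over H4. They were -0.31 over genes known for polyadenylated RNA (a set that then lacks H2BC21 and H2BC4) and 0.86 over the others. With only probe sets that lack an _s or _x suffix, the counts were 10 and 3 of 31 histone genes. The genes known for polyadenylated RNA then lack H2AC6, H2BC5 and H2BC21, and their median of -0.67 is the value of H2BC12. With every probe set fitted on its own their median was also -0.67, again the value of H2BC12. The suffix setting also lowered the medians of H2A to 0.25, H3 to 0.20 and H4 to 0.28. The fit of every probe set lowered that of H2A to 0.21. With the other H2BC5 probe set the median of the genes known for polyadenylated RNA stayed at -0.87. This was fixed in advance, since both H2BC5 values lie above the middle values, -1.08 (H2BC4) and -0.67 (H2BC12). The H2B median was 0.46 with the array set as a block and 0.16 with array weights.

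With each sample left out in turn, 16 to 22 histone genes were higher and 5 to 6 lower without overlap. Groups part more readily with fewer arrays, and the share of all genes was not counted in these settings. These counts therefore cannot be set against those from all samples. The median over all histone genes ranged from 0.32 to 0.46 with each sample left out. By class the ranges were 0.49 to 0.81 over H1 and 0.29 to 0.56 over H2A (lowest without SP replicate 1). Over H2B the range was 0.03 to 0.39 (0.0337 without SP replicate 1, 0.39 without SP replicate 3). It was 0.25 to 0.50 over H3 (lowest without non-SP replicate 3) and 0.30 to 0.58 over H4 (lowest without non-SP replicate 1). Genes known for polyadenylated RNA had medians of -0.93 to -0.75, and the others of 0.37 to 0.57.

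Samples with the same replicate number did not deviate together in every pair (correlations of 0.45, 0.38 and -0.21 over genes). The replicates numbered 3 lie in different array sets. Samples of the same set with different numbers also correlated, such as SP replicate 3 with non-SP replicate 2 (0.40). These values follow the array sets, so they cannot tell whether the numbers pair the samples. With the replicate block the differences and medians are the same by construction (0.37 over all histone genes). In that setting 0 histone genes passed, and the limma adjusted p of H2BC21 was 0.231. Further settings were cyclic loess, centring on the median, an intensity trend with a robust prior and the ACTB signal as a covariate. Their medians over all histone genes lay between 0.37 and 0.42. The cause of each change was not tested, beyond the smaller sets of genes named here.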
